A study of Mus musculus with 12 samples.

Results

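Chromatin accessibility at genes of the cilium, the centrosome and the axonemal dyneins was read from ATAC-seq peak lists of activated neurons in mouse infralimbic prefrontal cortex. ATAC-seq marks open DNA by the insertion of sequencing adapters with a transposase. The set held every protein-coding gene whose symbol begins with Cfap, Ift plus a number, Bbs plus a number, Dnah plus a number, Dnai plus a number, Dync2 or Cep plus a number. It came to 111 of the 21883 protein-coding genes placed on chromosomes 1 to 19, X and Y in the RefSeq table of GRCm38.p6, the build also called mm10. By family it held 14 Ift, 8 Bbs, 2 Dync2, 38 Cep, 34 Cfap and 15 Dnah genes, and no symbol in the table began with Dnai plus a number. The families were read as 3 classes: primary cilium (Ift, Bbs and Dync2, 24 genes), centrosome (Cep, 38 genes) and motile cilium (Cfap and Dnah, 49 genes).

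The libraries came from adult male C57BL/6 mice aged 10 to 12 weeks, with no transgene or deletion named in the labels. All mice had been fear conditioned with 3 pairings of a tone and a foot shock. A day later, extinction (EXT) mice were given 60 tones in another context, whereas retention control (RC) mice stayed there equally long and heard none. Each library pooled the tissue of 5 mice and used 50000 cells sorted for NeuN, a nuclear protein of neurons, and for Arc, whose gene is switched on by neuronal activity, so a replicate is a pool and single animals cannot be seen. Complete peak lists were held for 1 RC library, replicate 3, and for EXT replicates 1 and 2, and triplets of values are given in that order. They contained 97961, 80735 and 123375 peaks from 73.8 M, 65.0 M and 57.7 M tags. The lists of RC replicates 1 and 2 stop within chromosome 1, at positions 166286196 and 37624379. EXT replicate 3 and the lncRNA capture libraries were not analysed here. With 1 complete RC list, a difference between the groups has no replicate check on the RC side and no test was made. A peak also cannot tell a site open in few cells from one slightly open in all.

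Cilia are built on a basal body, a centriole docked at the cell surface, around a ring of microtubule doublets called the axoneme. Cargo is carried along the axoneme by intraflagellar transport trains, which kinesin-2 moves outward and the cytoplasmic dynein-2 motor (Dync2) returns, and the Bardet-Biedl syndrome proteins (Bbs) form a coat that moves membrane receptors in and out. Most neurons bear a single non-motile primary cilium that holds receptors for neuropeptides and monoamines. Motile cilia, carried in the brain by ependymal cells, further need the axonemal dynein heavy chains (Dnah), which drive beating, and many of the cilia- and flagella-associated proteins (Cfap). Cep proteins belong to the centrosome, the pair of centrioles and its surrounding material, and some of them act at the base of the cilium.

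The promoters below show the DNA behind the results. Sequences are from the RefSeq promoter table on GRCm38.p6, from 250 bases before to 50 after the annotated start, written 5′ to 3′ on the gene's strand. Of the 111 members, 93 had an entry. The first 4 are shown because they are the member promoters that held the full X-box, the palindrome bound by RFX transcription factors (the arm GTTNCC, then any 2 bases, then the arm's reverse complement, searched on both strands), which is in capitals. They belong to Bbs7, a subunit of the Bbs coat (chr3:36613340-36613639, minus strand), Cep19, a centriolar protein (chr16:32099539-32099838, plus strand), Cfap298, required for dynein arm assembly (chr16:90934800-90935099, minus strand), and Cfap20dc, named for a domain it shares with Cfap20 (chr14:8666241-8666540, minus strand).
Bbs7: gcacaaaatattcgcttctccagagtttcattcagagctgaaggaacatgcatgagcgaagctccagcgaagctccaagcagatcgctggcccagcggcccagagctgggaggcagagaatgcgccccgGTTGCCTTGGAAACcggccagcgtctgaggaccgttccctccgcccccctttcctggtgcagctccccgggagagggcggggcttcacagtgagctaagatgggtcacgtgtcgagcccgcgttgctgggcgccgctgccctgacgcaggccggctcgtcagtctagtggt
Cep19: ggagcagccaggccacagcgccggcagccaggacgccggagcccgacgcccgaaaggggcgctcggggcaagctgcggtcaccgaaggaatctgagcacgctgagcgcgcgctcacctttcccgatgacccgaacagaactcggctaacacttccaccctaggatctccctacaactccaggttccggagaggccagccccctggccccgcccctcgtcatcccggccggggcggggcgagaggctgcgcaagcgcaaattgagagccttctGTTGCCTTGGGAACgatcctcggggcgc
Cfap298: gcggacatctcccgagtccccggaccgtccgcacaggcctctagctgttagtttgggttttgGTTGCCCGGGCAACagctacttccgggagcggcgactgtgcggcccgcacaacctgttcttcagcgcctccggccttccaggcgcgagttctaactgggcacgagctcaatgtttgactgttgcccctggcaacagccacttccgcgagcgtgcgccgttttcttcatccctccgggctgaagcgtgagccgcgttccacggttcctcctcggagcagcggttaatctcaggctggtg
Cfap20dc: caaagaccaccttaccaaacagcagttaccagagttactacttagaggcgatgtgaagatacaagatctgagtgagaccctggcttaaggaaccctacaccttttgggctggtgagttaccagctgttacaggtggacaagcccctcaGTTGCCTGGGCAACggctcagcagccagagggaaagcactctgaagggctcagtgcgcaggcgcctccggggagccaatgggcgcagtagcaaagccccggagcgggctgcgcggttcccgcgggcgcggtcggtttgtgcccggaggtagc

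The X-box occurred in 4 of the 93 member promoters (4.30%) and in 72 of 17491 promoters of all protein-coding genes (0.412%). In 3 of the 4 it lay inside a peak of every complete list. A peak anywhere over the promoter in all 3 lists was present at 65 of the 93 member promoters. Over all genes this was so at 50 of the 72 promoters with an X-box, so the count at members is no trait of the X-box. At Bbs7 those peaks had folds of 9.15, 6.14 and 13.8, where a fold is the authors' ratio of the pileup at the peak to the local background of its own library. At Cep19 the folds were 4.66, 4.43 and 8.44, and at Cfap298 they were 7.54, 6.44 and 10.7. The fourth X-box, at Cfap20dc, lay within peaks of both EXT lists (4.18 and 6.40) and within no peak of RC replicate 3. A letter match is a description and was not tested for binding. The single arm GTTGCC, which the full motif can contain, was in 32 member promoters (34.4%) against 12.8% of all. Of the classes, 9 of 20 primary, 8 of 32 centrosome and 15 of 41 motile promoters held it. Searched in the same way, the forkhead motif TGTTTAC was in 4 member promoters (4.30%, all genes 2.93%) and CCAAT in 43 (46.2%, all genes 39.2%).

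Most members had a peak within 1 kb of a gene end, and the classes separated in the same order of primary and centrosome above motile in every list. An end peak is a peak that shares 1 bp or more with the stretch from 1 kb outside to 1 kb inside a boundary of the gene, whichever boundary that is. The set was selected on end peaks in these lists, so those values are a description and no test was made on them. End peaks were found at 82, 84 and 93 of the 111 members, or 73.9% (95% exact interval 64.7 to 81.8), 75.7% (66.6 to 83.3) and 83.8% (75.6 to 90.1). Over all protein-coding genes the shares were 56.0%, 53.3% and 61.1%. The mean over the 3 lists was 77.8% ± 5.28 (SD, n = 3) for members and 56.8% ± 3.96 for all genes. The intervals treat genes as separate observations and cover counting error only.

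**Figure D1:**
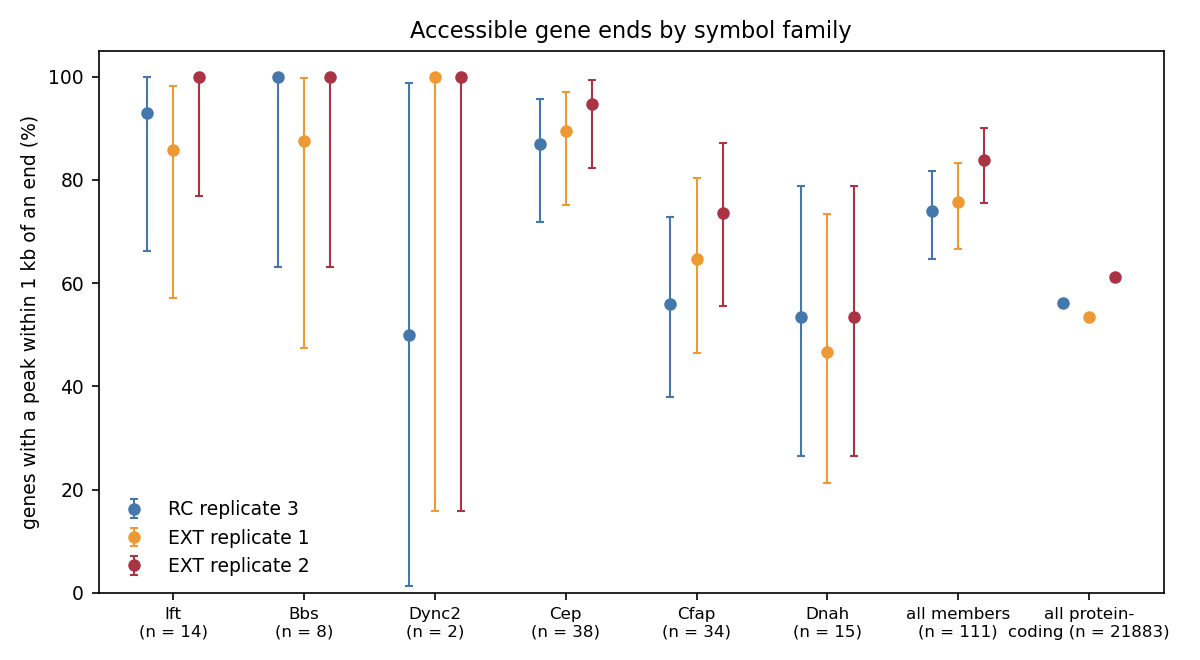
Share of genes with an end peak (y axis, percent) by symbol family and for all protein-coding genes, with a point for each complete list and its exact 95% binomial interval. The Ift, Bbs and Cep points stand at 85.7% or higher in every list, while the Dnah points lie between 46.7% and 53.3%.

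The primary cilium genes were nearly all open at an end. End peaks were at 22, 21 and 24 of the 24, a mean of 93.1% ± 6.36. All 24 had at least 1 peak within the gene span in each list. By family the counts were 13, 12 and 14 of 14 Ift genes, 8, 7 and 8 of 8 Bbs genes, and 1, 2 and 2 of 2 Dync2 genes. Each of the 4 members without an end peak in every list lacked it in 1 or 2 of the 3.

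The centrosome genes followed closely, with end peaks at 33, 34 and 36 of 38, a mean of 90.4% ± 4.02. Among the motile cilium genes the counts were 27, 29 and 33 of 49 (55.1%, 59.2% and 67.3%). Motile minus primary, the difference between these shares was -36.6, -28.3 and -32.7 percentage points (mean -32.5, SD 4.13, n = 3), and the mean was -19.0 with windows of 2 kb. The motile mean, 60.5% ± 6.23, differed from the mean of all genes by less than the SD between lists. Within the motile class, Cfap genes had end peaks at 19, 22 and 25 of 34 and Dnah genes at 8, 7 and 8 of 15.

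The contrast between the classes was also present at annotated start sites. Among the 93 members with a known strand, 70, 73 and 80 had a peak within 1 kb of the start (75.3%, 78.5% and 86.0%), against 55.4%, 53.6% and 60.1% of all genes with a strand. Primary genes had 19, 18 and 20 of 20 and centrosome genes 30, 32 and 32 of 32, compared with 21, 23 and 28 of 41 motile genes. Motile minus primary, the shares differed by -43.8, -33.9 and -31.7 points. Of the 14 Dnah genes with a strand, 4, 5 and 6 had a start-site peak. Far-end peaks were few, at 15, 16 and 21 members, and the shares over all genes were 14.1%, 11.6% and 17.1%.

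The motile members with no start-site peak in any complete list were mostly dynein heavy chains. They numbered 11 of the 93 members (all genes 37.5%): Dnah2, Dnah7b, Dnah7c, Dnah8, Dnah12, Dnah14, Dnah17, Cfap47, Cfap77, Cfap97d1 and Cfap100. An annotated start deep inside the gene span can miss peaks at the 5′ boundary. Cfap100 had end peaks at that boundary in all 3 lists, with folds of 5.56, 4.15 and 7.82. Dnah5 also had them there in all 3 lists, but had a start-site peak in EXT replicate 1 alone. The annotated starts of both lay inside the span. Start-site peaks in all 3 lists were present at 68 of 93 members (all genes 49.9%). With the windows at both ends, 76 of 111 members had an end peak in all 3 lists (all genes 49.0%). These comprised 20 of 24 primary, 32 of 38 centrosome and 24 of 49 motile genes. At 74 of the 76 (97.4%, all genes 95.8%) a common stretch of an end was covered in every list, the exceptions being Cfap57 and Dnah7a. No end peak in any list was found at 13 members (all genes 35.5%), of which 0 were primary, 2 centrosome and 11 motile. The 2 centrosome genes were Cep70 and Cep295nl, and Cep70 had start-site peaks in all 3 lists, its annotated start lying inside the gene span. The same held for Cfap74 among the 11 motile genes, and Cfap161 had a start-site peak in EXT replicate 2 alone.

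Ranked by fold within their own list, the best end peaks were strong in the primary and centrosome classes and weaker in the motile class. The percentile of a peak is the rank of its fold within its own list, with 100 the highest. Median percentiles of the members' best end peaks were 81.9, 77.1 and 87.1, against 74.3, 72.8 and 80.5 for all genes with an end peak. They were 86.6, 79.6 and 92.9 for primary and 86.6, 84.7 and 90.6 for centrosome genes. For motile genes they were 68.4, 59.9 and 79.6, below those of all genes in each list. Member folds ran from 2.44 to 12.9 in RC replicate 3, from 2.12 to 14.2 in EXT replicate 1 and from 1.97 to 17.8 in EXT replicate 2. Among the transport genes, Ift57 (chr16:49699294-49765126) had the highest mean percentile over the lists, 97.8, with folds of 11.1, 9.79 and 16.4. Ift140, of the complex that serves return transport, had folds of 11.8, 8.82 and 15.4, the first above that of Ift57, and Ift122 of the same complex had 9.81, 8.44 and 14.7. All 3 exceeded percentile 93 in each list.

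Among the Bbs genes, Bbs7 had best folds of 9.15, 6.69 and 14.0, but its strongest end peak was at the start site in RC replicate 3 and at the far end in both EXT lists. Bbs10, a chaperonin-like protein needed to assemble the Bbs coat, had 7.73, 8.74 and 10.3 at its start, and Bbs5 ranked next with a mean percentile of 87.7. Dync2li1, the light intermediate chain of dynein-2, had lower folds of 6.47, 4.69 and 8.08. The leading centrosome genes by mean percentile were Cep85 with folds of 12.9, 10.4 and 14.2, Cep192, a scaffold that recruits mitotic kinases and centrosome material, with 9.81, 9.75 and 15.3, and Cep128, of the mother centriole's appendages, with 8.67, 8.53 and 17.8.

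Some genes of the motile class, which was set by symbol alone, stood as high as the primary cilium genes. Cfap300, required for assembly of dynein arms, had folds of 11.6, 11.0 and 14.6, above percentile 97 in each list. Cfap36, which binds the ciliary GTPase Arl3, had 9.84, 7.64 and 13.4. Cfap43, an axonemal protein of sperm flagella, had 9.39, 14.2 and 8.35 at peaks starting at the same base, and was highest in EXT replicate 1. Among the dyneins, Dnah6 had 7.94, 7.08 and 13.2 at its upper end and Dnah9, an outer arm heavy chain, 5.57, 4.34 and 8.98. Dnah14 had the highest mean percentile of its family, 94.3, yet its peak lay at the far end of the gene. That peak was 160, 205 and 160 bp wide, 160 bp being the commonest width in each list, and its folds were 10.6, 13.9 and 8.30. The lowest member with end peaks in all 3 lists was Cfap97d1, with a mean percentile of 15.3.

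**Figure D2:**
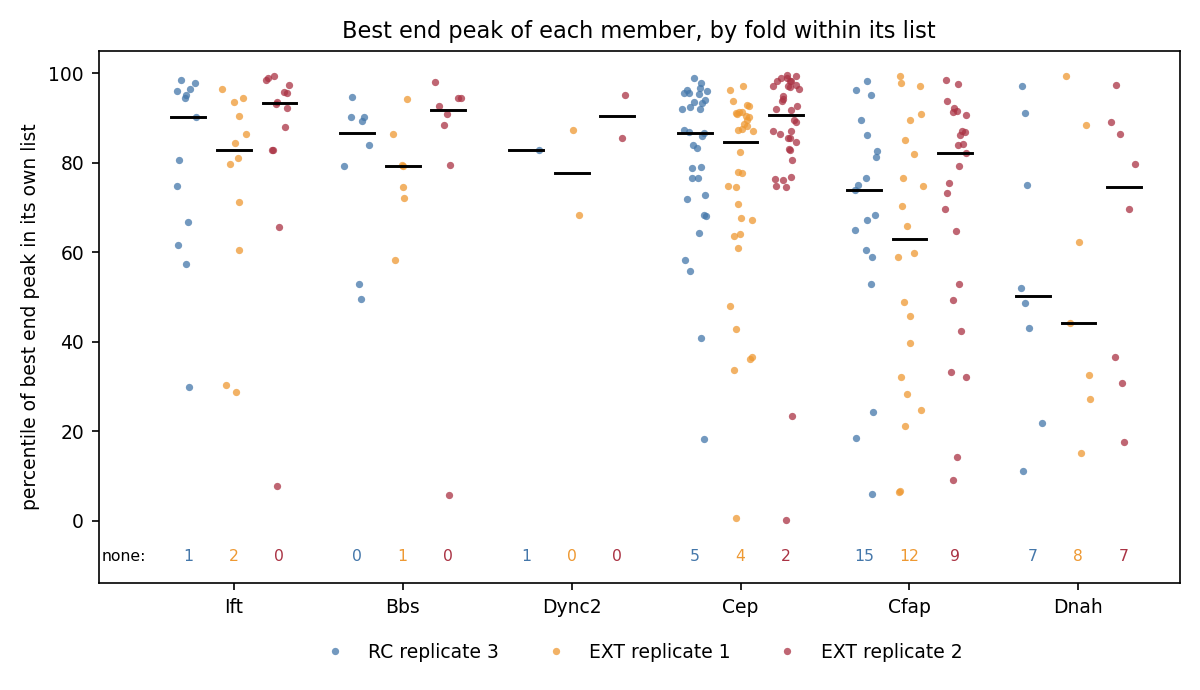
Percentile of each member's best end peak within its own list (y axis, 0 to 100) by family, with a point for each gene, a colour for each list and a black bar at the family median; the numbers at the foot count members with no end peak. Most Ift, Bbs and Cep points lie high, while the Dnah points are spread over the range and 7 or 8 of the 15 Dnah genes have none.

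At the authors' cutoff, the EXT lists held more end peaks at members than the RC list did. The mean EXT share, 79.7% (SD 5.73, n = 2), was 5.86 points above the 73.9% of RC replicate 3, and over all genes the difference was 1.19 points. By class it was 2.08 points for primary, 5.26 for centrosome and 8.16 for motile genes. EXT replicate 1, with the fewest peaks of the 3 lists and a share over all genes under that of RC replicate 3, exceeded RC replicate 3 by 2 members. EXT replicate 2, with the most peaks, exceeded RC replicate 3 by 11 members. Under a stricter cutoff (−log10 q of at least 5), EXT replicate 1 fell below RC replicate 3, at 65.8% against 68.5% of members. The members' difference is about the SD between the EXT lists, and no test was made with 1 RC list.

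Single genes that differed between the groups were few. At 6 members each EXT list had an end peak and RC replicate 3 had none, which is 5.41% of the set (all genes 2.01%): Cep135, Cep170b, Cfap20dc, Cfap206, Dnah17 and Dync2h1. The reverse, an end peak in RC replicate 3 alone, was found at 3 members, 2.70% (all genes 1.06%): Cfap97, Dnah1 and Dnah7c. With 1 EXT list to compare, the first count was 14 without EXT replicate 1 and 8 without EXT replicate 2, and the reverse count was 3 and 6. The first counts add members open in EXT replicate 2 only (all genes 5.40%) or EXT replicate 1 only (all genes 1.03%). Without EXT replicate 1, the reverse count adds any open in RC replicate 3 and EXT replicate 1 only (all genes 1.27%). Without EXT replicate 2, it adds those open in RC replicate 3 and EXT replicate 2 only (all genes 4.69%). Inspection of the peaks left a smaller number of genes with a clear gap.

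Cep135, a protein of the centriole's cartwheel, lies at chr5:76588653-76646466 on the plus strand. EXT replicate 1 had a 160 bp peak at 76588886 to 76589045, 233 to 392 bp inside the gene, with a fold of 6.85. EXT replicate 2 had a 711 bp peak over the start, at 76588536 to 76589246, with a fold of 9.82. The nearest peak of RC replicate 3 was 11810 bp from the nearer end. These EXT peaks ranked at percentiles 87.3 and 91.7 of their lists. With peaks of 160 bp or narrower left out, Cep135 no longer had this pattern. Cfap20dc, at chr14:8431171-8666336 on the minus strand, had start-site peaks with folds of 4.18 and 6.40 in the EXT lists, and the nearest RC replicate 3 peak was 28948 bp away.

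Dync2h1, the heavy chain that powers return transport, was counted as open in EXT alone only because of the window. The gene lies at chr9:6928550-7178306 on the minus strand. A peak of RC replicate 3 at 7176740 to 7177189 (fold 5.63) overlapped those of EXT replicate 1 at 7176931 to 7177405 (6.85) and EXT replicate 2 at 7176650 to 7177457 (11.5), but began 1117 bp inside the gene end, where the EXT peaks began at 901 and 849 bp. All 3 lists had a peak at the annotated start site. Its promoter (chr9:7177009-7177308, minus strand) is shown for that shared stretch, with the 181 bases at 7177009 to 7177189 that lay inside peaks of all 3 lists in capitals.
Dync2h1: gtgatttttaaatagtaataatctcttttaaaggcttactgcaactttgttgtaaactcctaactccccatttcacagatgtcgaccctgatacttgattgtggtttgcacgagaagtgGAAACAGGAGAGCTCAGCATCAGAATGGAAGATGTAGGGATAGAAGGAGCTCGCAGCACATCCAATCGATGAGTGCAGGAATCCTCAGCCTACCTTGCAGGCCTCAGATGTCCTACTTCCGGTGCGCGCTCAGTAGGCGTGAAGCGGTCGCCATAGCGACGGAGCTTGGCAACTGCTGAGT

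Cfap206, a radial spoke protein, met the same limit: its far-end peaks in EXT had folds of 4.51 and 9.77, and an overlapping RC replicate 3 peak lay 1022 bp from the end. EXT replicate 2 also had a start-site peak there, with a fold of 5.51. Dnah17 had far-end peaks with folds of 2.78 and 3.51. The 2 peaks at Cep170b, with folds of 2.12 and 1.97, did not overlap and ranked at percentiles 0.52 and 0.25. In the reverse direction, the Cfap97 peak of RC replicate 3 (46162862 to 46163857 on chromosome 8, fold 6.39) overlapped peaks of EXT replicate 1 (fold 5.47) and EXT replicate 2 (fold 11.6) that started outside the window. The RC-side peaks at Dnah1 and Dnah7c lay at far ends and had folds of 3.94 and 2.60.

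Counted at annotated start sites, 3 members were open in each EXT list but not in RC replicate 3 (all genes 2.00%). They were Cep135, Cep170b and Cfap20dc. No member had the reverse pattern (0 of 93, all genes 0.680%).

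**Figure D3:**
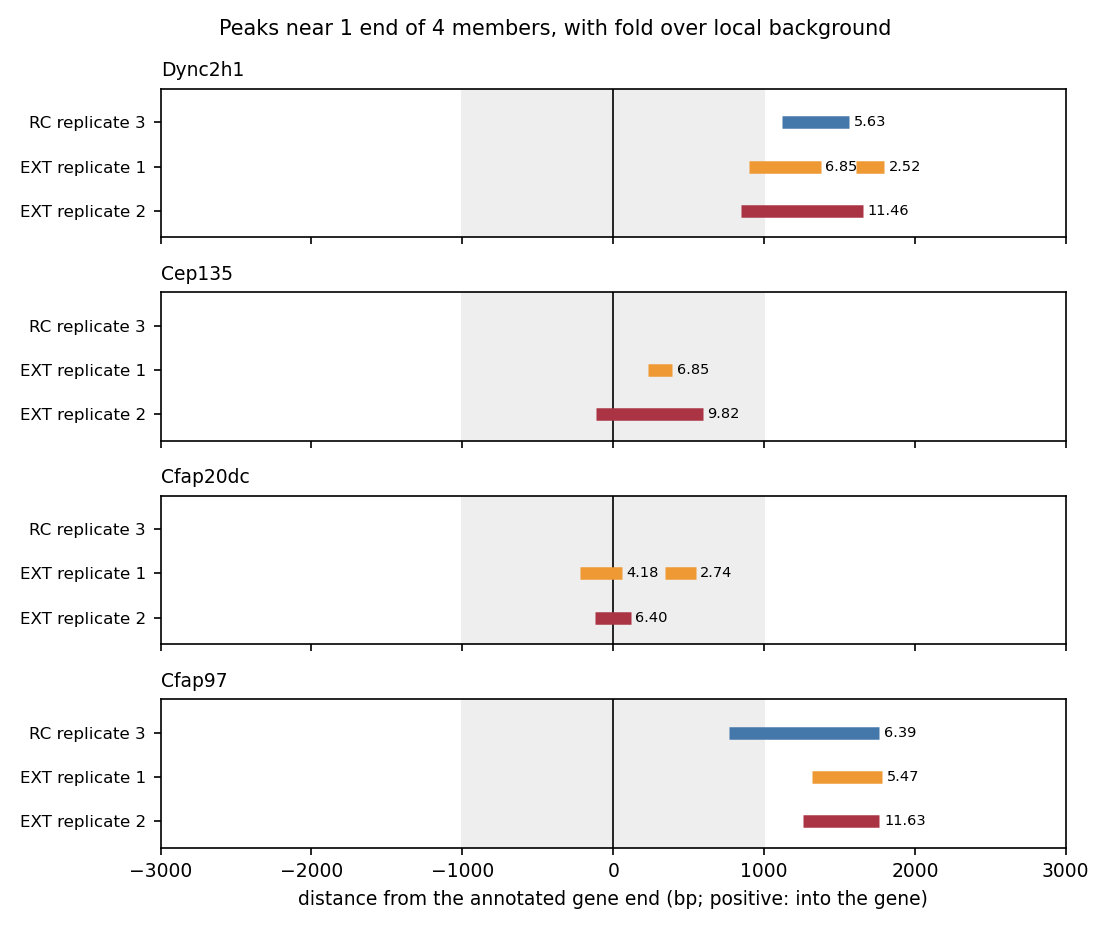
Peaks around 4 gene ends, with distance into the gene in bp on the x axis and a bar for each peak labelled by its fold, in a row for each complete list; the grey band is the window of 1 kb either way. Cep135 and Cfap20dc have no RC replicate 3 bar in view, whereas at Dync2h1 and Cfap97 the bars of all 3 lists overlap outside the band, and only some of them reach into it.

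The remaining members missed an end peak in some list without separating the groups. In RC replicate 3 and EXT replicate 2 but not EXT replicate 1 there were 3 (all genes 4.69%): Cep120, Bbs1 and Ift46. Ift46 had a 160 bp peak with the same bounds in both lists, with folds of 4.87 and 7.51, and at its annotated start site all 3 lists had a peak. Cep120 had best folds of 4.94 and 7.84. The Bbs1 peaks, with folds of 4.02 and 2.53, were about the start but did not overlap. None had end peaks in RC replicate 3 and EXT replicate 1 alone (0 members, all genes 1.27%). Only EXT replicate 2, the longest list, had an end peak at 8 members (all genes 5.40%): Cfap221, Cfap126, Cfap54, Ift43, Dnah11, Cfap99, Cfap299 and Cep41. Those of Cep41 and Cfap99 lay at the far end, with folds of 3.21 and 2.89. At the annotated start sites of these 2 genes all 3 lists had a peak. Cfap221 had a start-site peak in RC replicate 3 as well as in EXT replicate 2. Only EXT replicate 1 had one at Cfap58 and Cfap157 (all genes 1.03%).

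**Figure D4:**
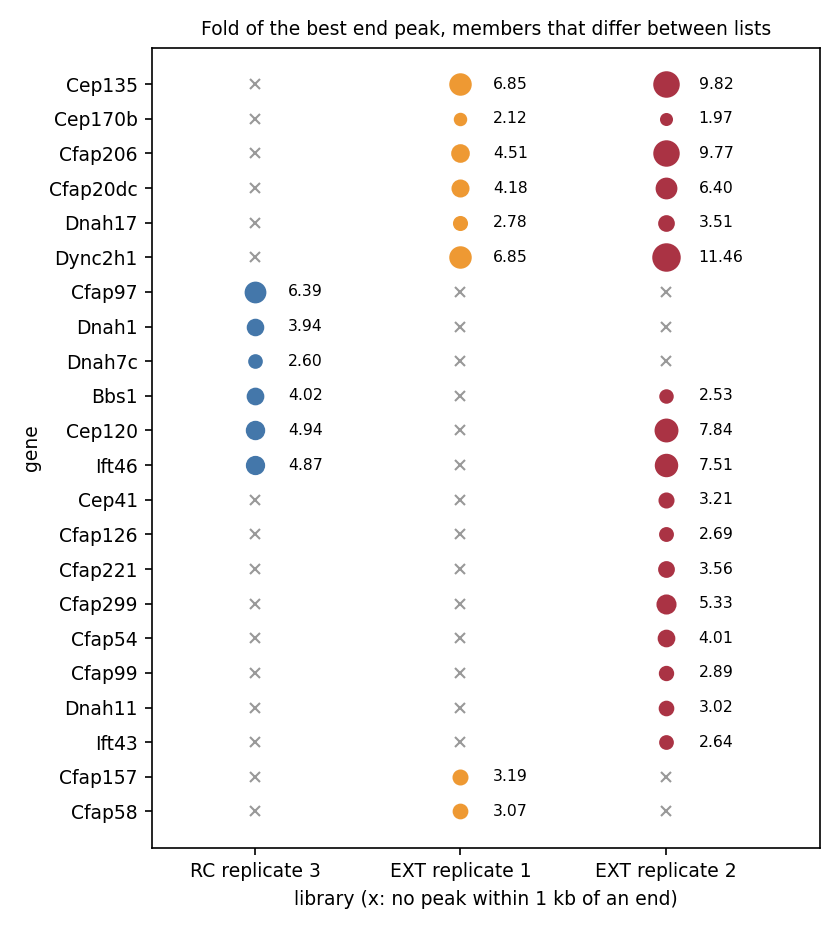
Best end peak in each complete list (x axis) for the 22 members that had an end peak in some lists and lacked one in others (y axis), with its fold printed beside a point whose area follows the fold; a cross means no end peak. Cep135, Dync2h1 and Cfap206 carry the highest folds of EXT replicate 2 shown here, and Cep170b the lowest.

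The nearest peaks just outside the 1 kb limit were those of Cfap206 (1022 bp), Dnah2 (1022 bp), Cep170b (1067 bp) and Dync2h1 (1117 bp) in RC replicate 3, and of Dnah2 (1033 bp) and Cfap73 (1132 bp) in EXT replicate 2. The next distance was 1258 bp, for Cfap97 in EXT replicate 2. Just inside were Cep41 in EXT replicate 2 (911 bp) and the 2 EXT peaks of Dync2h1.

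Nearly every member had a peak somewhere in its span, and peak density separated the classes again. A peak in the gene span was present at 103, 101 and 109 members (all genes 69.0%, 66.5% and 72.2%). Median densities were 9.88, 8.46 and 9.55 peaks per 100 kb in primary genes, 6.44, 6.33 and 8.57 in centrosome genes, and 4.71, 3.41 and 5.02 in motile genes. Dnah genes had 3.42, 2.49 and 3.36, and all genes 6.07, 4.91 and 7.79. Gene length moved with class: the median was 34.8 kb for primary, 42.7 kb for centrosome, 83.9 kb for motile and 238 kb for Dnah genes, against 17.2 kb for all. Among genes of 60 kb or longer, end peaks were at 8, 9 and 10 of 10 primary, 13, 12 and 13 of 14 centrosome, and 15, 16 and 19 of 30 motile genes (all genes 65.7%, 63.3% and 73.1%). The gap between the classes was also present in this group of long genes. It has no upper bound and the classes in it were not matched for length, so a part of gene length was not tested.

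The members with most peaks in their span were as follows. Bbs9, a coat subunit, held 16, 16 and 19 peaks over 413 kb, Ift122 held 11, 7 and 14, and Ift88, a core transport subunit, held 9, 8 and 9. Among centrosome genes Cep112 held 9, 10 and 18, Cep164, of the appendages that dock the centriole, 10, 8 and 8, and Cep70 5, 6 and 8. Of the motile genes, Cfap54 held 16, 16 and 22 and Dnah17 11, 11 and 14. Cfap46 (10, 8 and 16) and Dnah9 (12, 10 and 12) followed with the same total.

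Promoters of motile genes had a lower CpG ratio than those of the other classes. The observed-to-expected CpG ratio had a median of 0.758 in primary, 0.859 in centrosome and 0.564 in motile promoters, against 0.577 in all. Median GC content was 57.2%, 63.0%, 56.7% and 56.3%, so primary, motile and all promoters were close in GC. A peak over the promoter was present at 69, 67 and 77 of 93 members (all genes 44.8%, 42.8% and 50.8%). Within the motile class, the 18 promoters with a peak in all 3 lists had a median ratio of 0.626 and the 13 with none had 0.453. Over all genes the same groups had 0.816 and 0.220. Promoters of Ift140 (chr17:25015836-25016135, plus strand) and Dnah12 (chr14:26691304-26691603, plus strand) are given to show the span, with each CpG in capitals. Ift140 had 35 CpGs and a start-site peak in all lists, and Dnah12, an inner arm heavy chain, had 1 and no start-site peak in any. Other members went the other way. Cfap97d2 had 2 CpGs and a peak over the promoter in all 3 lists, and Cep170b had 44 and such a peak in EXT replicate 2 alone.
Ift140: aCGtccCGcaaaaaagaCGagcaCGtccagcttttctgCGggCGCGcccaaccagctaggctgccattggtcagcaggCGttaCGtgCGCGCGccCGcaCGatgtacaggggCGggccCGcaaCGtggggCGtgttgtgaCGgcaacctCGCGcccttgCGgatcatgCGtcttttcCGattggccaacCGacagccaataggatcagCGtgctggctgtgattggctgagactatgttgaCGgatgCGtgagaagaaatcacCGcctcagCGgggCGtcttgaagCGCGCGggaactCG
Dnah12: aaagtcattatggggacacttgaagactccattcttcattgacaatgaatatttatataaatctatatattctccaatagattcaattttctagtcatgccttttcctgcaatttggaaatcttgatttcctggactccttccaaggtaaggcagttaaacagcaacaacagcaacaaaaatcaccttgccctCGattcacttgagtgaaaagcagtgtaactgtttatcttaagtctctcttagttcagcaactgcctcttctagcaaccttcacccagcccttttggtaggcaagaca

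**Figure D5:**
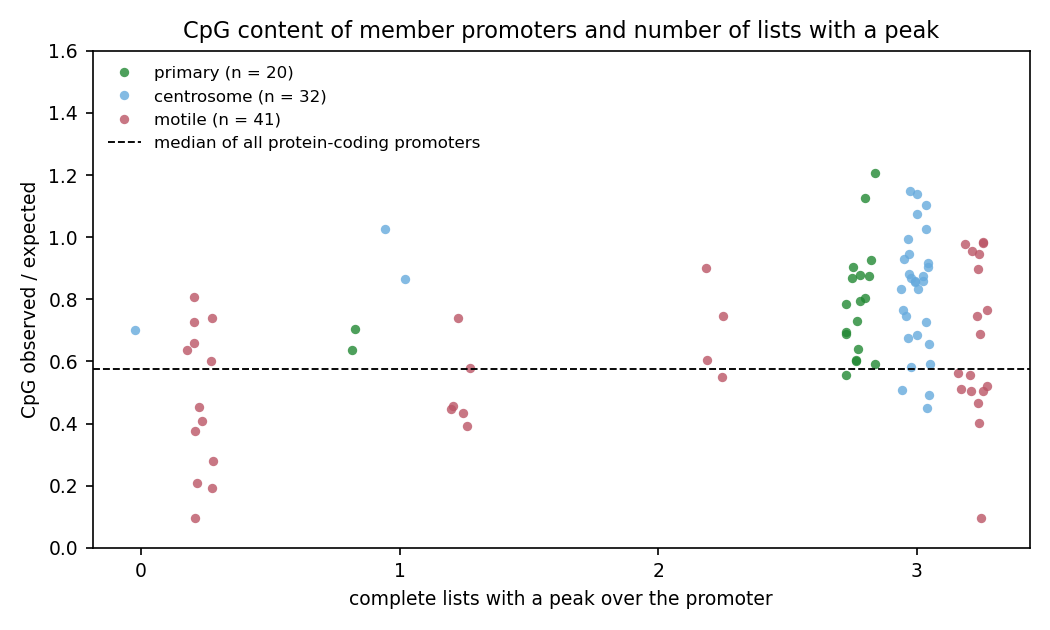
CpG observed-to-expected ratio of the 93 member promoters (y axis) by the number of complete lists with a peak over the promoter (x axis), with a point for each gene coloured by class and a dashed line at the median of all protein-coding promoters. The 3-list column holds 18 of the motile points and the zero column 13 of them, which reach both above and below the line.

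Some members lay close to a neighbour, and a peak in a window that 2 genes share cannot be assigned to 1 of them. The windows at the ends of 54 of 111 members (48.6%, all genes 32.2%) overlapped the end window of another protein-coding gene. A divergent start within 1 kb upstream was present at 16 of 93 members (17.2%, all genes 8.48%), of which 9 were centrosome, 3 primary and 4 motile genes. Examples were Cep290 with Tmtc3 (235 bp), Cep95 with Ddx5 (67 bp) and Ift20 with Tnfaip1 (101 bp). Start-site peaks were present at 15, 16 and 16 of these 16, close to the 94.3%, 92.9% and 95.8% of all genes with such a neighbour. Of the 77 members without such a neighbour, 55, 57 and 64 did (71.4%, 74.0% and 83.1%), against 51.8%, 50.0% and 56.8% of all such genes.

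Of the 10 members on chromosome 1, 6 lay where RC replicate 1 could be read and 0 where RC replicate 2 could. Of these 6, 1 had an end peak in RC replicate 1, against 3, 2 and 3 in the complete lists, and the shares over all genes in that stretch were 64.3%, 60.8%, 58.4% and 66.9%. Cep350, which acts at the centriole's microtubules, was open in all 4 with folds of 11.9, 5.99, 6.77 and 10.7. Dnah7a had weaker end peaks in the 3 complete lists (2.89, 3.06 and 3.73) and none in RC replicate 1. Dnah7c had one in RC replicate 3 alone, not in RC replicate 1, and Cfap221 in EXT replicate 2 alone. Dnah7b and Cfap65 had none. Beyond the reach of RC replicate 1, Cep170, a protein of the appendages that anchor microtubules, had folds of 7.09, 7.70 and 9.08. Cfap45, which lies inside the doublet microtubules, had 4.45, 2.90 and 7.76. Dnah7a, Dnah7b and Dnah7c are closely related copies on this chromosome, so reads could be split among them and their values are uncertain.

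Other genes of the cilium that the symbols do not capture were scored in the same lists, in which 56.0%, 53.3% and 61.1% of all genes had an end peak. Kinesin-2 genes had end peaks at 5, 5 and 5 of 5, with Kifap3, the adaptor of the motor, at folds of 9.24, 5.95 and 6.76. Transition zone genes, which gate the ciliary base, had 14, 15 and 16 of 16, with Rpgrip1l at folds of 11.8, 9.06 and 15.6. Ciliary traffic and signalling genes had 16, 14 and 17 of 19, and Pkd2, a cation channel, was open in RC replicate 3 alone. Centriole core genes had 12, 13 and 14 of 15; Stil, needed for centriole duplication, had folds of 10.4, 10.2 and 20.8, Ofd1 lacked an end peak in RC replicate 3 alone, and Cetn3 had none. Axoneme assembly and radial spoke genes had 17, 16 and 18 of 24, with Drc3 at 15.1, 12.7 and 18.3 and none at Dnaaf3, Dnaaf4, Spag1, Spag16 and Spag17. Regulators of cilium genes had 5, 5 and 4 of 10 (50.0%, 50.0% and 40.0%), below the share of all genes in each list. Rfx2 was open in all 3 with folds of 14.4, 10.6 and 16.8, whereas Rfx1, Rfx3, Rfx4, Rfx5 and Gmnc had no end peak in any list. An annotated start that lies inside the gene span falls outside these windows.

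Markers of cell types were read for the sorted population, beside end-peak shares over all genes of 56.0%, 53.3% and 61.1%. Neuronal markers had end peaks at 9, 7 and 8 of 10, with 6 in all 3 lists. Rbfox3, Gad1, Gad2 and Elavl3 lacked an end peak in some list. Rbfox3, the gene of the sorted protein NeuN, had one in EXT replicate 2 alone, with a fold of 2.16. Its span held 81, 61 and 91 peaks, so a missing end peak does not show that a cell type was absent. Ependymal cells bear motile cilia, and their markers had 3, 3 and 5 of 8 (37.5%, 37.5% and 62.5%). Open in all 3 lists were Mia with folds of 9.52, 7.39 and 13.6, Dynlrb2 with 5.32, 5.28 and 8.27, and Foxj1, the regulator of motile ciliogenesis, with 3.38, 3.08 and 4.66. The span of Mia held 0 peaks in each list, so its end peaks lay outside the gene. Whether they belong to a neighbouring gene was not tested. Calml4, Rarres2 and Tmem212 had no end peak. Astrocyte markers had 2, 2 and 2 of 6, with Aldoc (6.49, 3.92 and 7.11) and Gfap (2.74, 3.28 and 3.24) open in all lists and none at Aqp4, Slc1a3, Aldh1l1 and Gja1. Oligodendrocyte lineage markers had 2, 2 and 4 of 7. Of these, Olig1 had high folds of 22.8, 22.9 and 12.8 and Sox10 had 6.82, 5.58 and 3.71, while Mog and Olig2 were among those with no end peak. Microglial markers had 1, 2 and 2 of 6, with Spi1 open in all lists (2.40, 2.74 and 3.92) and none at Cx3cr1, P2ry12 and Tmem119. Whether cells of these types contributed to peaks at motile cilium genes was not tested.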

How the data were processed

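ATAC-seq peaks of 5 libraries were analysed, grouped by the labels' titles. Per the submitters' processing notes, the build was mm10 and the tools named include MACS2 2.2.4; the sources used here do not give the aligner of these libraries. The authors ran peak calling library by library without a control, per the file headers, with a shift of -75 bp, an extension of 150 bp, every duplicate retained and a q-value cutoff of 0.05. Retained duplicates can lift a peak made of few molecules. The deposited pileup is a coverage signal in whole tags, and fold enrichment is the authors' ratio to local background of the same library. Of the authors' −log10 values, the −log10 q served for a stricter list and the −log10 p was not used further. Such values were ranked only within a list.

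Gene spans were taken from RefSeq GRCm38.p6 and strand from the promoter table, and positions are 1-based. Peaks were joined to gene ends (1 kb, overlap of at least 1 bp) and spans in Python 3.11.15 with pandas 2.3.3, numpy 2.4.6 and scipy 1.17.1. The code was tested on simulated data and recovered 100% of the simulated peaks. Depth was 57.7 M to 73.8 M tags per library; exact (Clopper-Pearson) 95% intervals cover counting error only. Members, classes and the other gene lists were chosen with earlier results of these data known, so no set was tested.

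Named with values were members that differed between the groups, up to 3 per family with the highest mean percentile, the 3 per class with most span peaks, and members on chromosome 1. Of the other lists, examples with the highest mean percentile and genes with no end peak were named; a few of those examples are not reported here. Genes near the 1 kb limit, in divergent pairs and with the X-box were chosen after their values were seen. Alternatives were windows of 500 bp and 2 kb, lists cut to equal length, a −log10 q of 5 or more, the peak summit in the window, an overlap of at least 75 bp, peaks of 160 bp or narrower left out, start sites alone, Dnah genes alone for the motile class, Cep genes added to the primary class, and leaving out each library.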

Additional observations from a re-analysis of the deposited data

How the results depend on the processing

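Of 102 alternative values, 83 were labelled as unchanged and 19 as moved, by rules that differed between kinds of result. The share in a single list was judged by its exact interval, and means and differences by the SD between lists. Counts have no stated spread and were judged by their ratio to the main count. Shares and counts cannot change sign. Among the differences, with 13, 10 and 7 alternatives, 0 changed sign. The members' share moved to 84.7% (RC replicate 3), 84.7% (EXT replicate 1) and 91.0% (EXT replicate 2) with windows of 2 kb, and to 65.8% in EXT replicate 1 with −log10 q of 5 or more. The motile-to-primary difference was -25.5 points with 500 bp, -19.0 with 2 kb, -42.7 with the stricter q and -41.9 with Dnah genes alone. The centrosome mean was 86.0% with the stricter q and 97.9% at start sites. The difference in median peaks per 100 kb was -2.83 with the stricter q, -3.72 with lists of equal length, -4.32 without narrow peaks and -6.21 with Dnah alone. Members with an end peak in EXT and not in RC numbered 3 at start sites, and 8 to 14 when 1 EXT list was left out, 14 without EXT replicate 1. The reverse count was 0 with 2 kb and 0 at start sites, and 3 to 6 with 1 EXT list left out, 6 without EXT replicate 2. The EXT minus RC share, averaged over the EXT lists read, was positive throughout, from 1.80 points (without EXT replicate 2) to 9.91 (without EXT replicate 1). With the stricter q, EXT replicate 1 by itself was below RC replicate 3 (65.8% against 68.5%). Cep135 lost its pattern when narrow peaks were left out; fewer peaks were then read. No paired analysis was possible because RC replicate 3 shares no replicate number with the complete EXT lists. Depth limits a missing peak to below the authors' threshold in that library, which does not show closed chromatin.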
